A study of Mus musculus with 8 samples.

Results

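Cd209a-positive cells with high MHC class II were examined in the immune infiltrate of B16-OVA tumors after adoptive cell transfer (ACT). They numbered 90 of the 12828 cells that passed the cell filter, out of 15700 cell barcodes. A member cell had at least 1 unique molecular identifier (UMI, a counted RNA molecule) of Cd209a and at least 3 UMIs of H2-Eb1, fewer than 2 of Siglech and fewer than 2 of Fscn1. It had none of Cd3e, Cd79a or Ncr1, genes of T, B and natural killer (NK) cells. A cell passed the filter with between 500 and 6000 genes detected, a depth between 2000 and 40000 UMIs, a ribosomal protein share of 5% to 60% and a mitochondrial share below 10%. The cells were thus chosen by the UMIs of these genes, whose levels are given below as a description only.

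B16-OVA is a mouse melanoma line made to express ovalbumin, and it was grown under the skin of C57BL/6 mice that were 7 weeks old when the tumor cells were injected. Mice received OT1 cells, CD8+ T cells whose receptor recognizes an ovalbumin peptide, by vein and without lymphodepletion. The OT1 cells were untransduced (UT) or secreted a PD-1 decoy (PD1d), an interleukin-2 variant that does not engage CD25 (IL-2v) or interleukin-33 (IL-33), with the decoy paired with either cytokine. PD1d/IL-2v/IL-33 ACT was a 1:1 mix of both engineered cell pools, and its libraries are called orthogonal ACT here. Sorted CD45+ tumor-infiltrating cells were sequenced from non-treated (NT) tumor-bearing mice and from UT ACT at day 5, from ACT with UT, PD1d/IL-33 or PD1d/IL-2v cells at day 12, and from orthogonal ACT at days 5, 12 and 26 after transfer. Each library pools tumors, of 5 mice per condition where the study states it, and no condition was sequenced more than once on a day. Differences between libraries therefore have no replicate check, no test was possible, and the 95% intervals below cover counting error only. The deposited library listing holds an identifier whose meaning is not stated. UT and orthogonal ACT of day 12 share it, likewise PD1d/IL-33 with PD1d/IL-2v ACT, and NT with orthogonal ACT of day 26. Each of the 4 comparisons of libraries with at least 10 members joins different identifiers. A batch that they may mark cannot be told apart from condition there. Folds of PD1d/IL-33 against PD1d/IL-2v ACT are within the same identifier.

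Conventional dendritic cells take up antigen in tissues and display its peptides on MHC class II to CD4+ T cells and on MHC class I to CD8+ T cells, the latter by cross-presentation. The type marked by Sirpa, Irf4 and C-type lectins such as Cd209a, Clec10a and Mgl2 is best known for class II presentation, and monocytes that enter an inflamed tissue can take up MHC class II and some of the same lectins. Interferons raise a set of genes in these cells that includes Cxcl10 and Ifit3, whereas IL-4 and IL-13 act through Stat6 and raise another that includes Mgl2, Ccl17 and Ccl24. IL-33 is a cytokine of the interleukin-1 family that acts on cells with its receptor chain Il1rl1.

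The 5 markers given for these cells did not all mark them. Cst3, the gene of cystatin C, a protease inhibitor abundant in dendritic cells, had UMIs in 90 of 90 members. Flt3, the receptor through which dendritic cells and their precursors receive growth signals, had UMIs in 34 members, Zbtb46, a transcription factor of conventional dendritic cells, in 36, and either gene in 54. Klk1 had 0 UMIs in members, and 694 of its 696 UMIs in all passing cells lay in the 45 cells with 2 or more UMIs of Siglech, a gene of plasmacytoid dendritic cells that the rule leaves out. Xcr1, which defines the other conventional type, also had 0 UMIs. Yet 12 of the 15 genes listed for that type had UMIs in members, Naaa the most, and Clec9a was among them. The members are therefore called Cd209a-positive cells here and not dendritic cells as such.

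Members were deep cells, with a median of 11772 UMIs (2014 to 23075) against 5740 in all passing cells. At the edge of the rule, 11 members had 1 UMI of Cd209a and 8 had 2, while 40 had 10 or more, the median was 7.5 and the highest value 94. For H2-Eb1 the median was 76 UMIs, and 4 members had 3 or 4. Just outside the rule lay 47 other passing cells with Cd209a, of which 27 carried a UMI of Cd3e, Cd79a or Ncr1, 18 had fewer than 3 UMIs of H2-Eb1 and 2 had Siglech. Cd209a was found in 22 of 7719 Cd3e-positive cells (0.285%; median 5641 UMIs). Doublets were not called, and the part of free RNA and doublets in these values was not tested. A UMI of the T cell genes Cd3d, Cd3g, Cd8a or Cd8b1 was present in 10 members, any C1q gene, a macrophage feature, in 5, and 3 or more of 8 cell cycle genes in 3. Barcode sequences shared between libraries numbered 143, and 3 members carried such a sequence.

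Cd209a-positive cells were few in every library. They made up 3 of 23 MHC class II-high cells (H2-Eb1 of at least 3 UMIs without Cd3e, Cd79a or Ncr1) in NT tumors (13.04%, exact Clopper-Pearson 95% interval 2.78% to 33.6%), 13 of 146 after UT ACT at day 5 (8.90%, 4.83% to 14.7%) and 5 of 14 at day 12 (35.7%, 12.8% to 64.9%). They made up 15 of 170 after PD1d/IL-2v ACT (8.82%, 5.02% to 14.1%) and 6 of 32 after PD1d/IL-33 ACT (18.8%, 7.21% to 36.4%). After orthogonal ACT they made up 11 of 296 at day 5 (3.72%, 1.87% to 6.55%), 11 of 155 at day 12 (7.10%, 3.60% to 12.3%) and 26 of 194 at day 26 (13.4%, 8.95% to 19.0%). The share was lowest at day 5 of orthogonal ACT and higher at day 26, with intervals that did not overlap, whereas the day 5 interval overlapped that of UT ACT at the same day. Members were deeper at day 26 than at day 5 (median 15256.5 against 9310 UMIs), and under the cell filter of the study's second experiment, which has a lower upper limit on depth, the shares were 4.38% at day 5 and 6.31% at day 26. The sort favored CD8+ cells, so shares of all cells are not read, and thinning each cell to 2000 UMIs before the gate left 63 members.

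**Figure D1:**
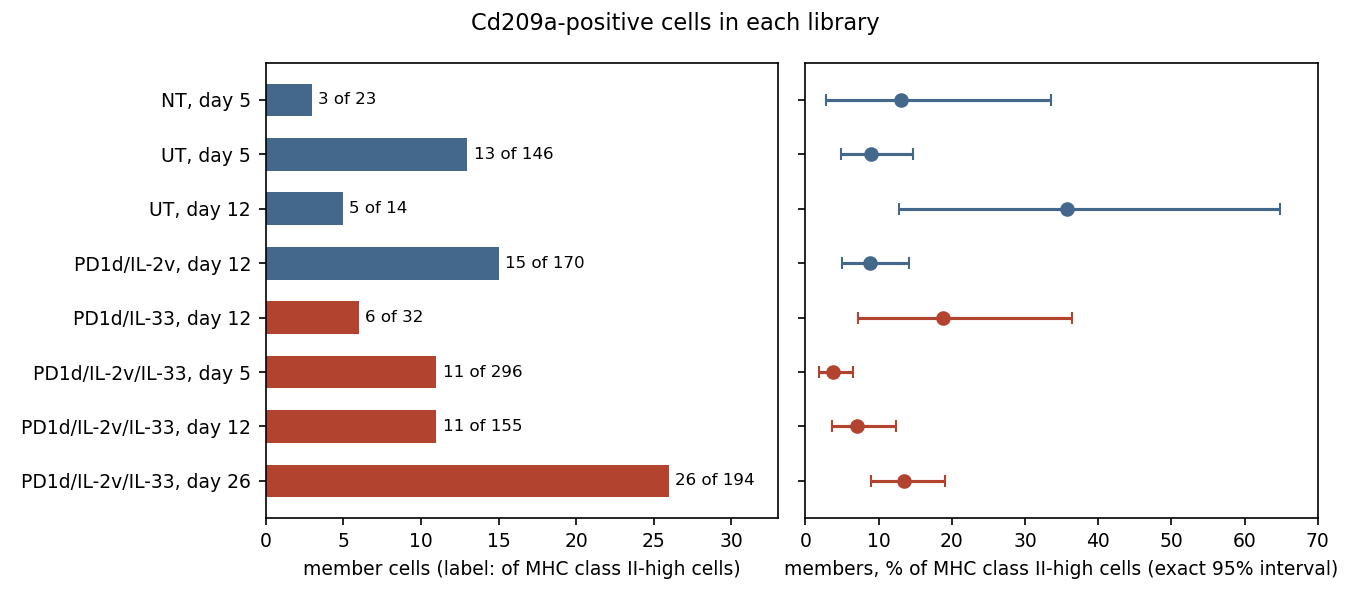
Left, number of Cd209a-positive cells in each of the 8 libraries, labelled with the number of MHC class II-high cells; right, their share of those cells in percent (points) with exact 95% intervals (bars, counting error only). Red marks libraries with IL-33-secreting T cells and blue those without; orthogonal ACT ran from 3.72% at day 5 to 13.4% at day 26.

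Among the gated sets of the same tumors, Cd209a-positive cells had the highest MHC class II sum, a feature that their rule selects in part. They were set against 58 mature cells (Fscn1 of at least 2 UMIs), 159 C1q-positive cells and 924 C1q-low cells with Lyz2, all gated on expression, so the differences describe the gates and are not tested. Members and mature cells had to hold at least 3 UMIs of H2-Eb1, but the C1q-positive and C1q-low sets did not. Class II genes tend to be high together, so leaving H2-Eb1 out of a sum does not undo this. Levels are UMIs summed over cells and scaled to a total of 1000000 (CPM). Without the gate genes, 18 genes of the MHC class II pathway summed to 55007 CPM in members, 31577 in mature, 32751 in C1q-positive and 18937 in C1q-low cells. The 14 markers of the Cd209a-bearing conventional type summed to 1922 CPM in members and to 650, 1264 and 994 CPM in those sets. Against C1q-positive cells 6 of the 14 were higher in members and 2 lower, and likewise against C1q-low cells. Sirpa stood at 170 CPM in members and at 82.9, 374 and 269 in those sets. The 15 markers of the other conventional type summed to 1258 CPM in members and to 1543, 1376 and 1288 in those sets, a narrow range. By contrast, 19 genes of conventional dendritic cells in general summed to 2881 CPM in members, below mature cells (5773) and near C1q-positive (2389) and C1q-low cells (2606). Macrophage markers summed to 590 CPM in members and 9171 in C1q-positive cells. Monocyte markers summed to 7065 CPM in members, with Ifitm3 the most abundant, and to 15874 in C1q-low cells.

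Some single genes drew the same lines. Levels at least 2-fold higher in members than in C1q-low cells were seen for 3.1% of genes tested, and at least 2-fold lower ones for 6.19%. Among the 10 with the highest ratios were Cd7, a surface protein of lymphocytes and some dendritic cells (257 against 1.74 CPM), Mgl2, a galactose-binding lectin, H2-DMb2, which helps load peptides on MHC class II, Kmo, an enzyme of tryptophan breakdown, and Clec10a, a lectin (422 against 29.2 CPM). These were higher in each of the 5 libraries with at least 10 cells of both sets. Beside C1q-positive cells 4.1% of genes were higher and 7.34% lower, and the latter included Chil3, C1qb, Apoe and Ccl24, each in 5 of 5 libraries. Against mature cells 18.8% of genes were higher and 11.8% lower. Ccr7, the receptor that guides dendritic cells to lymph nodes, stood at 33.7 in members and 4231 CPM, and the chemokine Ccl4 at 1083 and 8.29 CPM. Il12b, a subunit of interleukin-12, had 0 UMIs in members.

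**Figure D2:**
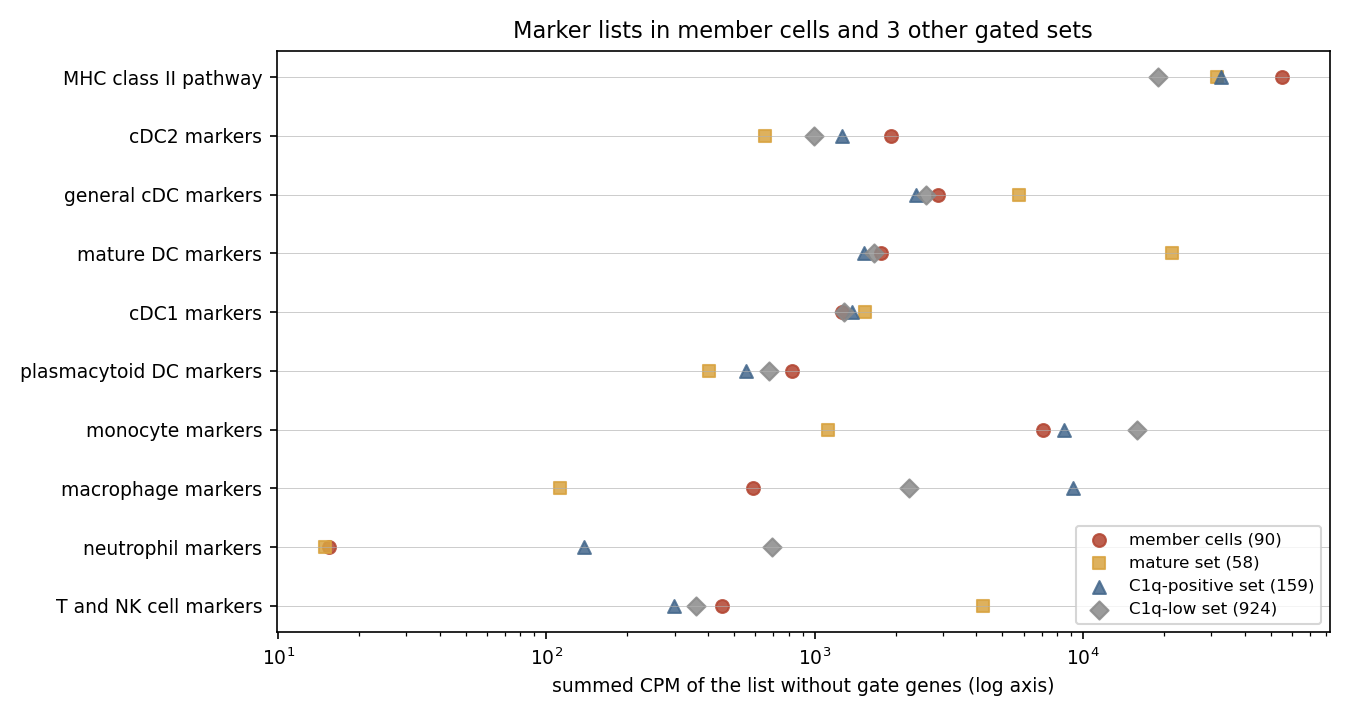
Summed CPM (log axis) of 10 marker lists, without the genes used to gate, in Cd209a-positive cells and 3 other sets gated from the same libraries; each symbol is the sum over all cells of a set. Members have the highest MHC class II sum (55007) and a low macrophage sum (590), and the mature set stands apart in mature dendritic cell markers. Members and the mature set were gated on H2-Eb1, a class II gene, and the C1q-positive and C1q-low sets were not.

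Comparisons between libraries rest on few cells. The number fixed for a comparison was 20 members, which only orthogonal ACT at day 26 reached, so libraries with at least 10 were used: UT at day 5, PD1d/IL-2v at day 12 and orthogonal ACT at days 5, 12 and 26. The other 3 libraries are given as values, apart from folds of PD1d/IL-33 against PD1d/IL-2v ACT for Mgl2 and Wdfy4. Member cells of the 3 held 42781 UMIs in NT, 35091 in UT at day 12 and 51885 in PD1d/IL-33 ACT, against 89284 to 383255 in the 5 compared. A log2 ratio is between CPM + 10, over genes with at least 20 UMIs in both libraries together, and a gene is called at 2-fold or more.

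Several genes linked to IL-4 and IL-13 were higher in Cd209a-positive cells of orthogonal ACT than of UT ACT at day 5. Of 9 genes of that list tested (Cd209a left out), 7 were at least 2-fold higher and 0 lower, with a median log2 ratio of 1.79 beside -0.00 over all 1750 genes. In all genes tested, 11.5% were called higher and 11.7% lower. At day 12, against PD1d/IL-2v ACT, 6 of 11 were higher and 0 lower, with a median of 1.62 beside -0.04, and 9.79% of all genes were called higher and 11.1% lower. Some genes pass the minimum of 20 UMIs only through the library where they are high. With at least 1 UMI, 10 of 18 were higher and 1 lower at day 5 (median 1.17, beside 13.9% higher and 14.9% lower in all genes), and 6 of 13 were higher and 1 lower at day 12 (median 0.96, beside 19.4% and 18.0%). Scaling by TMM factors moved the median of all genes to -0.17 and -0.25 and the calls over all genes from 201 higher and 204 lower to 164 and 281 at day 5, and from 182 and 207 to 121 and 299 at day 12, with 7 of 9 and 6 of 11 genes of the list still higher and 0 and 1 lower. The list was drawn up with earlier results of these data known, and orthogonal ACT of day 12 also enters both later comparisons.

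Mgl2, the galactose-binding lectin, was higher in orthogonal ACT in both comparisons. Its level was 210 CPM in NT, 199 in UT at day 5, 57.0 in UT at day 12, 190 in PD1d/IL-2v, 1561 in PD1d/IL-33, and 1048, 605 and 112 in orthogonal ACT at days 5, 12 and 26. The 3 libraries with IL-33 at days 5 and 12 stood above the 4 without IL-33, while day 26 lay among those. The fold was 5.25 (3.49 to 8.15) for orthogonal against UT ACT at day 5, 3.18 (2.03 to 5.03) against PD1d/IL-2v ACT at day 12, and 8.20 (5.43 to 12.6) for PD1d/IL-33 against PD1d/IL-2v ACT, the latter with 6 members. Mgl2 had UMIs in 6 of 11 members at day 5 and 8 of 11 at day 12 of orthogonal ACT, in 3 of 13 of UT ACT and in 3 of 15 of PD1d/IL-2v ACT. With the highest cell of each library left out the levels were 642 and 434 CPM in orthogonal ACT at days 5 and 12, against 81.4 in UT at day 5 and 78.0 in PD1d/IL-2v. Cd3e-positive cells had at most 12.5 CPM of Mgl2 in any library.

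Ccl24, the gene of eotaxin-2, a chemokine that attracts eosinophils, had UMIs in 12 members, all of them after orthogonal ACT. It stood at 0 in each of the other 5 libraries, and at 1871, 728 and 5.22 CPM in orthogonal ACT at days 5, 12 and 26. Against the limit of 3 UMIs per library, it was at least 93.8-fold higher than in UT ACT at day 5 and at least 43.4-fold higher than in PD1d/IL-2v ACT at day 12. Few cells gave most of it: 135 of 200 UMIs at day 5 came from 1 member and 42 of 65 at day 12 from another, and 7 and 4 of 11 members had any. The C1q-positive cells of the same libraries had more, 15623 and 5151 CPM. Cd3e-positive cells had 257 CPM at day 5, with a UMI in 6.82% of cells (median 6846.5 UMIs), and 16.8 CPM at day 12, in 1.51% (median 7188 UMIs), against at most 0.680 CPM in the libraries where members had 0. Whether free RNA from C1q-positive cells adds to the members' level was not tested.

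Other genes of the list ranged from 1 cell to most members. Ccl17, a chemokine for Ccr4-bearing T cells, stood at 1052 CPM in NT, 19.9 in UT at day 5, 0 in UT at day 12, 168 in PD1d/IL-2v, 0 in PD1d/IL-33, and 1441, 694 and 83.5 in orthogonal ACT. High and low values were thus found with and without IL-33, and 62 of 62 UMIs at day 12 and 138 of 154 at day 5 of orthogonal ACT lay in 1 cell each. The NT value also came from 1 cell, with 45 UMIs, and was 0 with that cell left out. Cd209e, a lectin gene at chr8:3847973-3854286 in the cluster of Cd209a (chr8:3743395-3748984, GRCm38), was at 403 CPM in orthogonal ACT at day 12 in 4 cells and at most 65.2 elsewhere. Mrc1, the mannose receptor, was at 347 CPM there and at most 154 elsewhere. Clec10a, in 67 of 90 members, was at 608, 672 and 436 CPM in orthogonal ACT and 210 to 341 in the other 5 libraries, below 2-fold in both comparisons. Outside the list, Plet1, a surface protein of some epithelial and dendritic cells, was among the 5 highest ratios in both comparisons (954 against 19.9 and 773 against 22.4 CPM), with 91 of 102 and 62 of 69 UMIs in 1 cell.

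**Figure D3:**
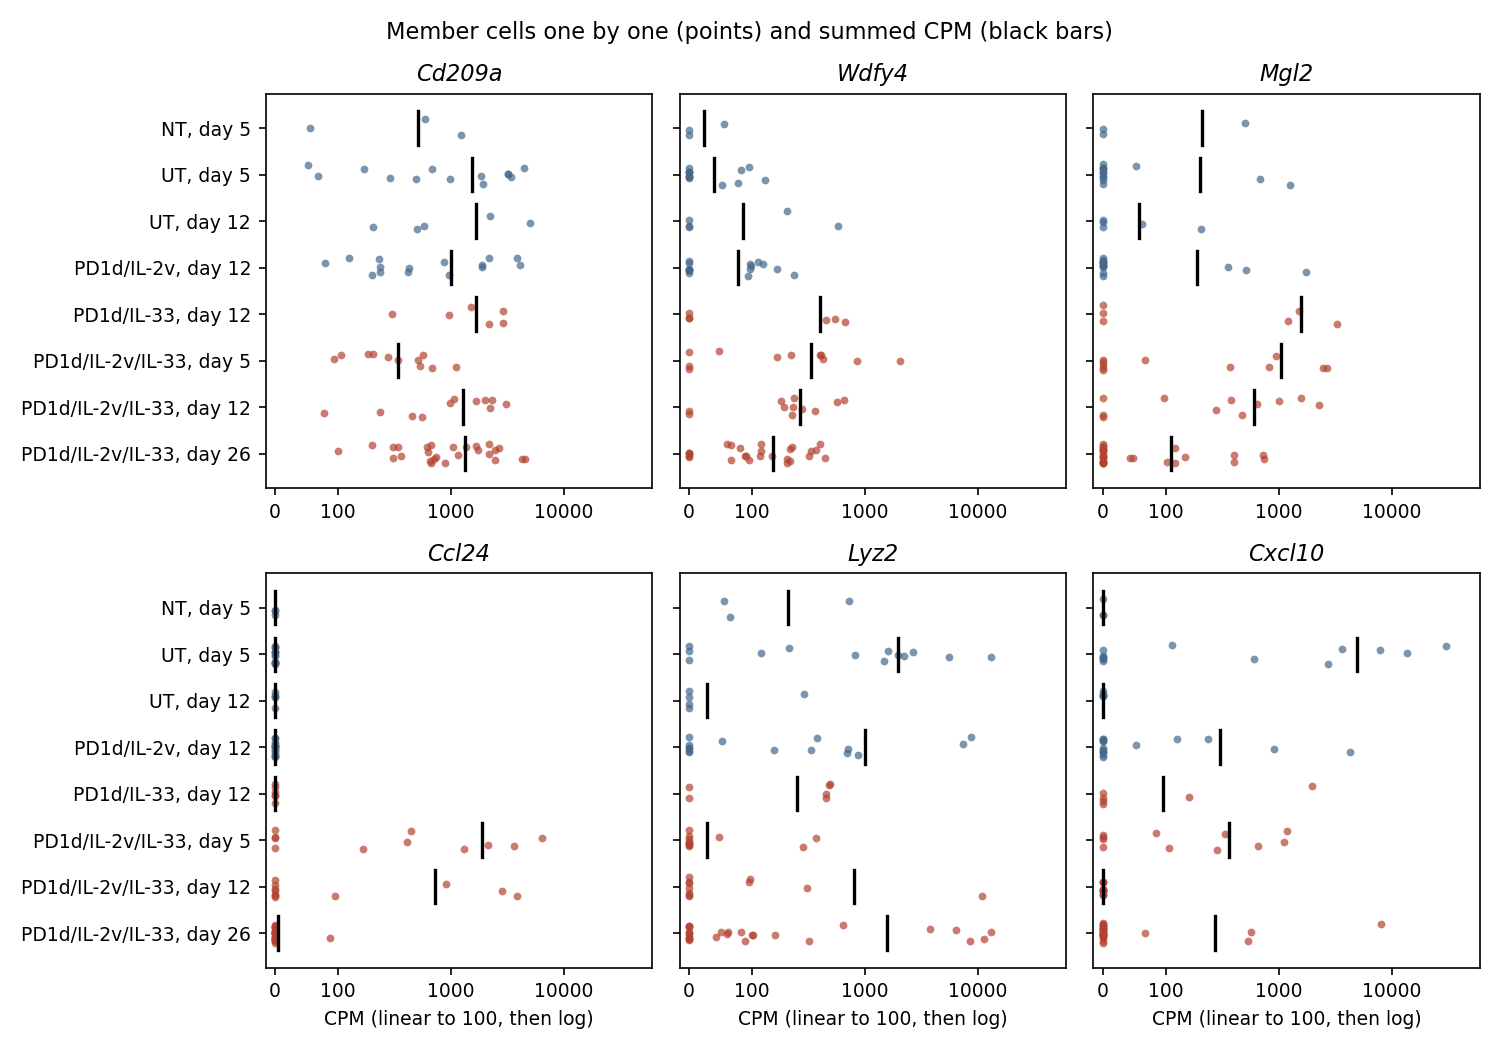
CPM of 6 genes in each Cd209a-positive cell (points) and summed over the cells of a library (black bars), on an axis linear to 100 and logarithmic above; red marks libraries with IL-33-secreting T cells. Mgl2 and Wdfy4 points lie in many cells of the IL-33 libraries of days 5 and 12, Ccl24 in 7 and 4 cells of orthogonal ACT, and Lyz2 and Cxcl10 in scattered cells.

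Among interferon genes, lower calls outnumbered higher ones in the same comparisons. Taking the lists linked to type I interferon and interferon-gamma together, 13 of 35 genes tested were at least 2-fold lower and 1 higher in orthogonal than in UT ACT at day 5 (median -0.68, beside 11.7% lower in all genes), and 14 of 26 lower and 0 higher than in PD1d/IL-2v ACT at day 12 (median -1.03, beside 11.1%). Cxcl10, a chemokine for Cxcr3-bearing T cells, stood at 0 in NT, 4945 in UT at day 5, 0 in UT at day 12, 302 in PD1d/IL-2v, 96.4 in PD1d/IL-33, and 365, 0 and 271 CPM in orthogonal ACT. The library of UT ACT at day 5 was far above every other, and NT, UT at day 12 and orthogonal ACT at day 12 had none. The level in UT ACT at day 5 was 13.6-fold (9.82 to 19.2) that of orthogonal ACT, with 370 of 744 UMIs in 1 cell and UMIs in 7 of 13 members. At day 5, Cd3e-positive cells had 167 CPM of Cxcl10 in UT ACT, with a UMI in 13.1% of cells. In orthogonal ACT they had 69.8 CPM, in 7.94% of cells. C1q-low cells had 3950 and 3288 CPM. Whether free RNA adds to the members' level was not tested. Irf7, a transcription factor of the type I response, stood at 359 and 56.1 CPM in UT and orthogonal ACT at day 5. Cd274, the gene of PD-L1, stood at 366 and 337 CPM at day 5, and at 325 in PD1d/IL-2v against 67.2 in orthogonal ACT at day 12.

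Fewer interferon genes were called at day 5 when members high in Lyz2, a lysozyme gene of monocytes and macrophages, were left out. Members with 10 or more Lyz2 UMIs, a cut chosen after the values were seen, numbered 7 of 13 in UT ACT and 0 of 11 in orthogonal ACT. Lyz2 also differed in Cd3e-positive cells, at 335 CPM in UT ACT, with a UMI in 16.9% of cells. In orthogonal ACT these had 33.3 CPM, in 2.85% of cells. The part of free RNA in the members' Lyz2 was not tested. Without such members, which left 6 cells in UT ACT, 3 of 23 interferon genes were lower and 1 higher at day 5, with a median of 0.09, whereas 8 of 8 genes linked to IL-4 and IL-13 were higher (median 1.65). Over all 1274 genes tested in that setting, 15.1% were higher and 9.34% lower. Fewer interferon genes reached the minimum of 20 UMIs there than the 35 with all members. Cxcl10 stayed higher in the 6 UT cells, at 1055 CPM against 365 in orthogonal ACT, with 69 of 74 UMIs in 1 cell. Mgl2 stood at 428 CPM in the UT cells that were left, nearer to the 1048 of orthogonal ACT than with all members. At day 12, where PD1d/IL-2v had 3 such members and orthogonal ACT 1, leaving them out gave 18 of 25 interferon genes lower and 0 higher (median -1.25), beside 10.1% higher and 12.8% lower of all genes, and 6 of 11 genes linked to IL-4 and IL-13 higher and 1 lower (median 1.43).

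RefSeq promoters (GRCm38.p6, 250 bases before to 50 after a start, on the gene's strand) show what the genes above have in their sequence. Capitals mark the motif TTCNNNNGAA, a Stat6-type spacing that reads the same on both strands, in Ccl17 and Cd209e, and the motif GAAANNGAAA or its reverse TTTCNNTTTC, an interferon response element, in Cxcl10 and Ifit3. Mgl2 (chr11:70130107-70130406, plus strand) holds neither. The windows of Ccl17 and Cd209e are chr8:94810203-94810502 (plus) and chr8:3854237-3854536 (minus), and those of Cxcl10 and Ifit3 are chr5:92348840-92349139 (minus) and chr19:34583279-34583578 (plus).
Mgl2: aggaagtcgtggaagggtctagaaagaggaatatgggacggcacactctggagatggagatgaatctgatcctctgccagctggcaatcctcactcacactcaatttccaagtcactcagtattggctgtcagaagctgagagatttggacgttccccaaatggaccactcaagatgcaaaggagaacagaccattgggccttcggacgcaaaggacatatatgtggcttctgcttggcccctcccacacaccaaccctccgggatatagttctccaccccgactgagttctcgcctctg
Ccl17: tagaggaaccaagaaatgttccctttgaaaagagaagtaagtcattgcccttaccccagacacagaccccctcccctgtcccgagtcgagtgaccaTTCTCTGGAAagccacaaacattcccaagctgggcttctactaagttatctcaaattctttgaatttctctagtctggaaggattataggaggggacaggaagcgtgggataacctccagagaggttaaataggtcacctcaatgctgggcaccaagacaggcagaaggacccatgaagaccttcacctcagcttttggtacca
Cd209e: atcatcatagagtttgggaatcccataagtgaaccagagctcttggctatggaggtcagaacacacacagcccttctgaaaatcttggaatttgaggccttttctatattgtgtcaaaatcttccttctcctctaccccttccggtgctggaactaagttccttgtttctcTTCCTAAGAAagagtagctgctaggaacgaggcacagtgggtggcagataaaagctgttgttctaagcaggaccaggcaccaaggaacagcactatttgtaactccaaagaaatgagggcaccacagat
Cxcl10: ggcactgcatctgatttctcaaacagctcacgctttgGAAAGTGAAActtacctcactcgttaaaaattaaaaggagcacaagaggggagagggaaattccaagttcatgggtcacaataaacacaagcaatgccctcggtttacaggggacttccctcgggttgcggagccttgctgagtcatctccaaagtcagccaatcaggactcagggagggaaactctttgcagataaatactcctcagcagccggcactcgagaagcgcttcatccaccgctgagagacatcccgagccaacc
Ifit3: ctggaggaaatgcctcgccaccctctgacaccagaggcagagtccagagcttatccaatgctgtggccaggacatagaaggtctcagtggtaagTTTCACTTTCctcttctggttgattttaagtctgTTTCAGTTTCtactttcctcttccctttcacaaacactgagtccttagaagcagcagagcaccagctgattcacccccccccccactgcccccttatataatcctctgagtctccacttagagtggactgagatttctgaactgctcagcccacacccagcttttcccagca
The motifs start 154 bases before the start in Ccl17, 79 in Cd209e, 213 in Cxcl10, and 156 and 122 in Ifit3. TTCNNNNGAA was in 5 of 20 promoters of the IL-4 and IL-13 list (25%), in 5 of 26 of the type I interferon list (19.2%), in 1 of 19 of the interferon-gamma list (5.26%) and in 6.95% of all 32851 promoters of the same length. It was thus not particular to the first list. GAAANNGAAA on either strand was in 14 of 26 promoters of the type I interferon list (53.8%) and 11 of 19 of the interferon-gamma list (57.9%), against 1 of 20 of the IL-4 and IL-13 list (5%) and 3.44% of all. A match describes the letters and is not a bound site.

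Over the days of orthogonal ACT most calls among genes linked to IL-4 and IL-13 were lower at each later day, while calls among interferon genes were higher at day 26 than at day 12. From day 5 to day 12, 6 of 10 genes linked to IL-4 and IL-13 were lower and 2 higher (median -1.13), and 8 of 19 interferon genes were lower and 1 higher (median -0.87, but -0.09 with each cell given the same weight and -0.38 over 50 genes with at least 1 UMI), where 7.65% of all genes were called higher and 9.88% lower. From day 12 to day 26, 6 of 12 of the former were lower and 1 higher (median -1.28), and 16 of 38 of the latter were higher and 0 lower (median 0.95), beside 11.5% higher and 6.86% lower in all genes. TMM scaling moved the calls over all genes from 110 higher and 142 lower to 82 and 161 at day 12, and from 355 and 212 to 481 and 151 at day 26, where the median of all genes became 0.24. Ccl24 was 140-fold (37.1 to 1176) lower at day 26 than at day 12, and Mgl2 was 5.39-fold (3.54 to 8.24) lower. Il1b, the gene of interleukin-1 beta, stood at 4558 CPM in NT, 5530 and 1966 in UT at days 5 and 12, 3241 in PD1d/IL-2v, 1638 in PD1d/IL-33, and 3462, 392 and 1589 in orthogonal ACT. Its lowest value, at day 12 of orthogonal ACT, was 8.83-fold (6.24 to 12.9) below that of day 5.

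**Figure D4:**
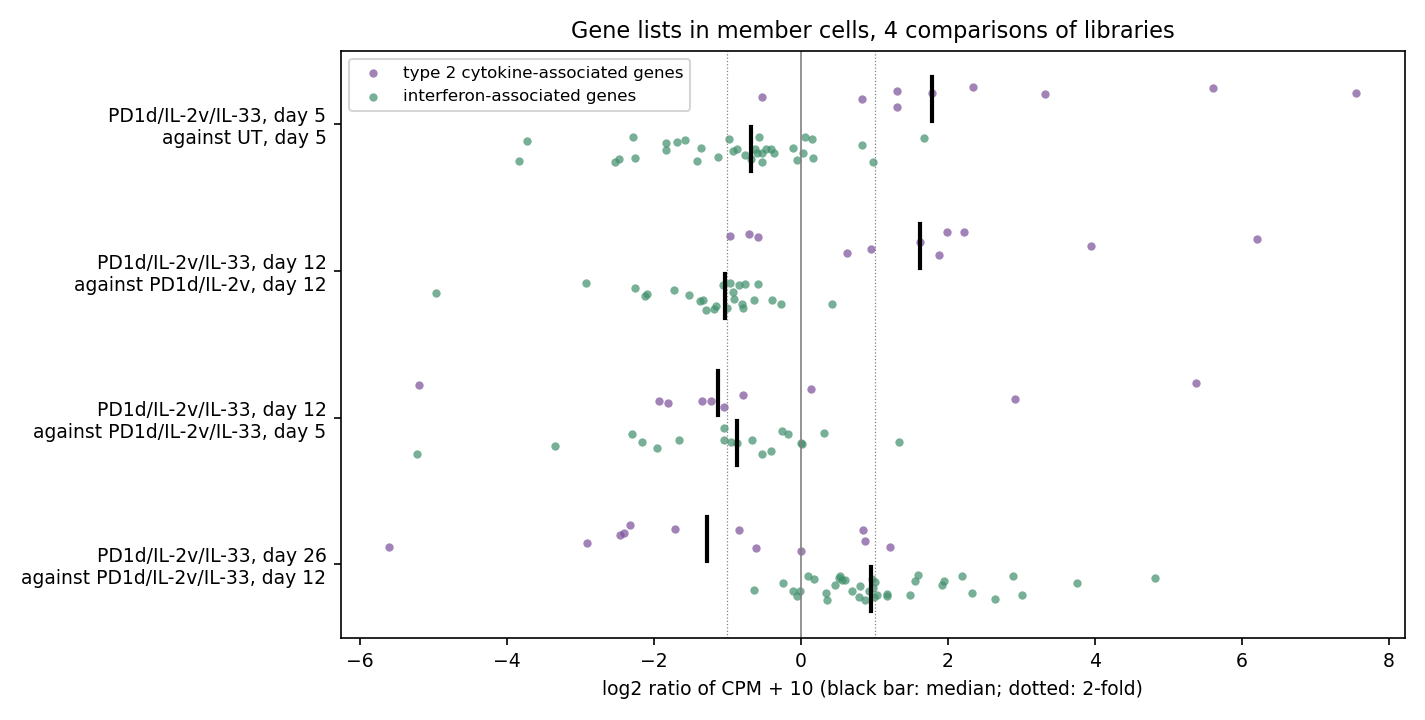
Log2 ratio of CPM + 10 of each gene tested (points) linked to IL-4 and IL-13 (purple) or to interferon (green) in Cd209a-positive cells, for 4 comparisons of libraries; black bars mark the median and dotted lines 2-fold. Purple medians are 1.79, 1.62, -1.13 and -1.28 and green medians -0.68, -1.03, -0.87 and 0.95 from top to bottom.

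Most genes linked to NF-kappaB were lower at day 12 than at day 5 of orthogonal ACT. Of 13 tested, 11 were lower and 0 higher (median -1.87). Of 17 immediate early genes, 4 were lower and 1 higher in the same comparison (median -0.05), beside 9.88% lower and 7.65% higher in all genes. The heat shock genes Hspa1b and Hspa1a had the highest log2 ratios of the same comparison, 6.14 and 5.82. Hspa1a stood at 9.36 CPM at day 5, from 1 cell, and at 1086 at day 12, from 6 of 11 cells, and the part of cell stress in the other differences was not tested. Nfkbia, the inhibitor that NF-kappaB itself induces, stood at 2735 CPM in NT, 4660 and 370 in UT, 750 in PD1d/IL-2v, 1368 in PD1d/IL-33, and 2161, 246 and 681 in orthogonal ACT. Day 12 was the lowest for orthogonal ACT, and both UT and orthogonal ACT were lower at day 12 than at day 5. Cxcl2, a chemokine for neutrophils, was at 1871 CPM at day 5 and 11.2 at day 12, with 156 of its 200 UMIs at day 5 in 1 cell. Between treatments at day 5, of 18 immediate early genes 13 were lower and 3 higher in orthogonal than in UT ACT (median -1.68), beside 11.7% lower and 11.5% higher in all genes. Jun was at 1595 and 159 CPM, a 10.0-fold (6.13 to 17.5) difference, with 110 of its UMIs in UT ACT in 1 cell.

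MHC class II pathway genes stayed within 2-fold at day 5 and were lower in part at day 12. Of 13 MHC class II pathway genes tested besides H2-Eb1, 0 were called at day 5 between orthogonal and UT ACT, where the median was -0.13. Over all genes, 11.5% were called higher and 11.7% lower there. At day 12, 4 of 14 were lower and 0 higher than in PD1d/IL-2v ACT (median -0.69), where 11.1% of all genes were lower: Lgmn, an endopeptidase that cuts antigen, H2-Oa, Ciita, the coactivator that switches on class II genes, and Ctsh, a protease. H2-Aa stood at 9140 CPM in NT, 11692 and 13536 in UT, 12074 in PD1d/IL-2v, 9675 in PD1d/IL-33, and 9852, 9688 and 9576 in orthogonal ACT, a narrow range. Cd86, a costimulatory ligand of CD28, was at 206 CPM in UT ACT and 74.8 in orthogonal ACT at day 5, a 2.75-fold (1.24 to 6.93) difference, and at 168 in PD1d/IL-2v against 11.2, from 1 UMI, in orthogonal ACT at day 12. Ccr7 was at 206 CPM in UT ACT at day 5, with 27 of 31 UMIs in 1 cell, and at most 22.4 elsewhere.

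Wdfy4, of the cross-presentation list, had higher levels in each library with IL-33 than in each without. It encodes a protein that dendritic cells need to present antigens of dead cells on MHC class I. Its level was 23.4 CPM in NT, 39.9 and 85.5 in UT at days 5 and 12, 78.4 in PD1d/IL-2v, 405 in PD1d/IL-33, and 337, 269 and 154 in orthogonal ACT. The levels of the 4 libraries with IL-33-secreting T cells were above those of the 4 without, but their counting intervals overlapped in part. That of day 26 (117 to 199) overlapped those of NT (0.592 to 130, from 1 UMI), PD1d/IL-2v (42.8 to 131) and UT at day 12 (17.6 to 250, from 3 UMIs), and the last also overlapped those of orthogonal ACT at day 5 (236 to 466) and day 12 (172 to 400). The fold was 8.45 (3.52 to 24.5) for orthogonal against UT ACT at day 5, 3.43 (1.70 to 7.17) against PD1d/IL-2v at day 12 and 5.16 (2.50 to 11.0) for PD1d/IL-33 against PD1d/IL-2v. It had UMIs in 57 members, and with the highest cell of each library left out the levels were 144 to 282 CPM with IL-33 and 0 to 66.3 without. The 6 members of PD1d/IL-33 ACT had 11, 6, 4, 0, 0 and 0 UMIs, and those of PD1d/IL-2v ACT 0 to 3. Cells without Wdfy4 were thus found in both. C1q-low cells had 26.2 CPM in UT at day 5, 49.0 in orthogonal ACT at day 5, 25.9 in PD1d/IL-2v and 44.4 in orthogonal ACT at day 12, with 79.4 in NT and 134 in PD1d/IL-33, so those with and without IL-33 overlapped. Cd3e-positive cells had at most 2.94 CPM. Of the 14 genes of the list tested in each comparison, Wdfy4 was the 1 called higher, and 3 were lower at day 5 and 1 at day 12, where 11.7% and 11.1% of all genes were lower. Over the 5 libraries compared, 3 of 16 genes of the list lay above in the libraries with IL-33 and 4 below, beside 15.3% and 10% of all genes.

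Taking libraries with at least 10 members, 1029 of 6736 genes (15.3%) lay above in all 3 libraries of orthogonal ACT compared with UT at day 5 and PD1d/IL-2v, and 675 (10%) below; with TMM scaling these were 821 and 957. With all 8 libraries, 191 of 6793 (2.81%) lay above in every IL-33 library and 109 (1.6%) below, among them Wdfy4 above and Rgs1, a brake on G-protein signalling from chemokine receptors, below. Rgs1 stood at 421 CPM in NT, 1496 and 1111 in UT, 879 in PD1d/IL-2v, 19.3 in PD1d/IL-33, and 365, 11.2 and 355 in orthogonal ACT. The lowest library without IL-33 (NT, 18 UMIs) was close to the highest with it. Both genes kept their side in 13 of 13 settings tried, most of which compared the 5 libraries with at least 10 members. Since both were separate in all 8 libraries, settings that only drop libraries or change the minimum level could not reverse this. With the highest cell of each library left out over all 8 libraries, Rgs1 overlapped, at 0 to 255 CPM with IL-33 and 120 to 924 without. Over the 5 libraries, 2 of 16 genes linked to IL-4 and IL-13 lay above (Ccl24 and Clec10a) and 0 below, while of 25 type I interferon genes 0 lay above and 10 below, and of 25 interferon-gamma genes 2 above and 2 below. The sets also differ in day and in IL-2v, so they are not replicates of a condition. Leading genes by the width of the gap were Plet1, Ugcg, an enzyme of glycolipid synthesis, and Sec24d, of vesicle transport, above, and Hcar2, a niacin receptor, Kit, the receptor of stem cell factor, and Tnfrsf9, the costimulatory receptor 4-1BB, below. Tnfrsf9 had 9 UMIs in all members together, so its gap rests on few molecules. Kit was at 66.5 CPM in UT at day 5, 67.2 in PD1d/IL-2v, and 9.36, 0 and 13.05 in orthogonal ACT.

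The receptor chains of the secreted cytokines were measured in the same cells. Il1rl1 had 1 UMI in all 90 members, in NT, whereas the Cd3e-positive cells of orthogonal ACT at day 5 had 181 CPM. Il2rg, the chain shared by receptors of interleukin-2 and its relatives, was at 445 and 140 CPM in UT and orthogonal ACT at day 5, and at 459 and 56.0 in PD1d/IL-2v and orthogonal ACT at day 12. Il4ra, the receptor chain of IL-4 and IL-13, was at 126 and 327 CPM at day 5 and at 134 and 78.4 at day 12, higher in orthogonal ACT at day 5 only.

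Cd209a-positive cells were not uniform. Lyz2 had 0 UMIs in 40 members, 5 to 9 in 6, 10 to 19 in 4 and up to 169 in 1, and 16 members had 10 or more. This division was chosen after the values were seen, and it is described without a test. The 16 came from UT at day 5 (7), PD1d/IL-2v (3), and orthogonal ACT at day 12 (1) and day 26 (5). Their levels and those of the other 74 were 4081 and 212 CPM for Cxcl10, 772 and 120 for Ly6c2, a monocyte surface protein, 437 and 41.1 for Il1rn, the antagonist of interleukin-1, and 1002 and 252 for Irf1. Conversely Ccl17, Ccl24 and Plet1 were at 0 in the Lyz2-high members and at 383, 314 and 301 CPM in the others, H2-DMb2 at 47.9 and 470, Mgl2 at 58.6 and 416, and Wdfy4 at 37.3 and 185. These sums mix libraries, since 10 of the 16 came from libraries where Ccl24 was at 0 in every member and 0 from orthogonal ACT at day 5, so values within a library are given next. In UT ACT at day 5, the 7 Lyz2-high members and the other 6 had Cxcl10 at 8342 and 1055 CPM, Ly6c2 at 423 and 85.6, H2-DMb2 at 49.8 and 485, and Mgl2 at 0 and 428. At day 26 of orthogonal ACT, the 5 Lyz2-high members and the other 21 had Ly6c2 at 1382 and 142 CPM, with 68 of the 93 UMIs of the former in 1 cell, H2-DMb2 at 44.6 and 563, and Wdfy4 at 44.6 and 177. Cxcl10 at 1263 and 60.1 CPM and Mgl2 at 163 and 101 are not read there, since 1 Lyz2-high cell held 84 of 85 UMIs of Cxcl10 and another held 11 of 11 of Mgl2. In PD1d/IL-2v ACT, with 3 and 12 members, H2-DMb2 was at 59.2 and 600.5 CPM and Mgl2 at 0 and 235, whereas Cxcl10 was close, at 326 and 297. H2-DMb2 was lower in the Lyz2-high members of each of these 3 libraries. Depth was alike, with medians of 11876 and 11503.5 UMIs, and so was the rule's own Cd209a (1422 and 1146 CPM). Flt3 was present in 7 of 16 and 27 of 74.

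**Figure D5:**
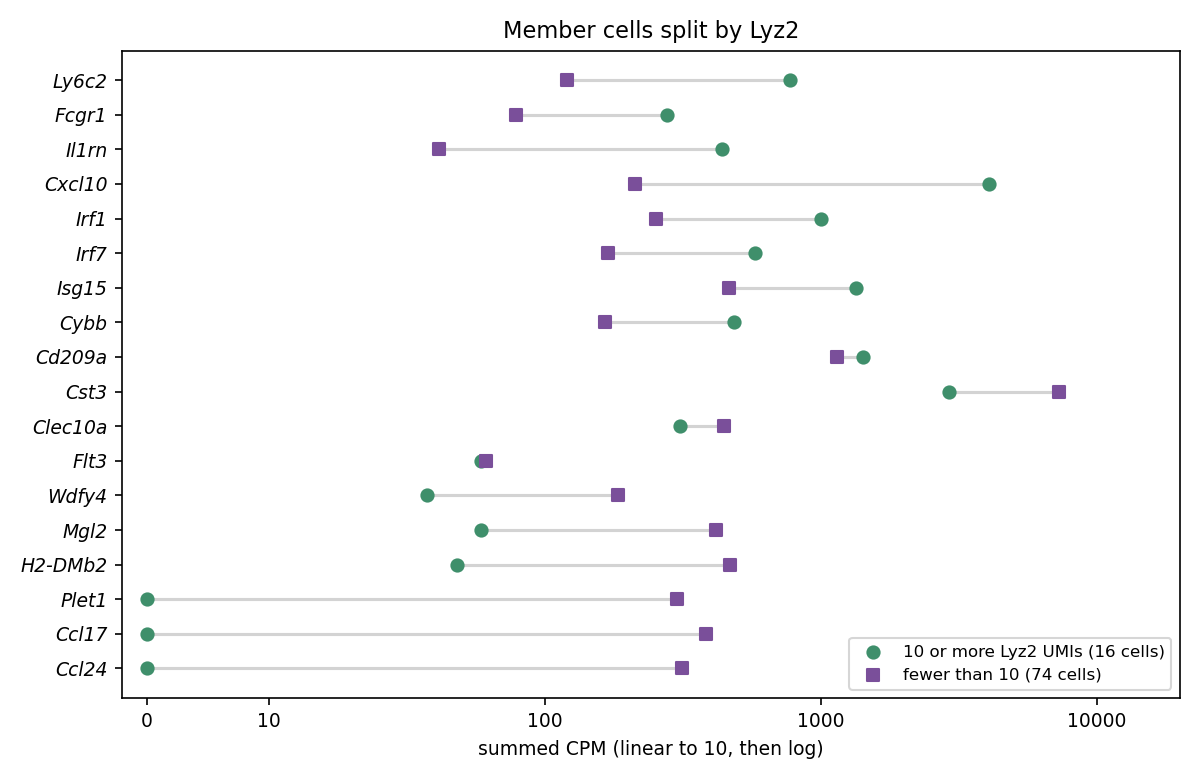
Summed CPM of 18 genes (axis linear to 10, then logarithmic) in the 16 Cd209a-positive cells with 10 or more Lyz2 UMIs (green circles) and the other 74 (purple squares), joined by lines. Monocyte and interferon genes lie to the right in the former, as Cxcl10 at 4081 against 212, and Mgl2, Wdfy4, Ccl17 and Ccl24 in the latter, while Flt3 and Cd209a lie close; the sums mix libraries.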

How the data were processed

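The 8 libraries hold sorted CD45+ tumor cells profiled by 10x 5' single-cell RNA sequencing. The authors deposited one aggregated matrix of UMI counts (27998 genes, 15700 barcodes, 98669511 UMIs). The submitters' processing notes name Cell Ranger 2.2.0, bcl2fastq and the mouse build GRCm38. The count values were used as deposited, with the library taken from the barcode suffix and the line of the aggregation table. Library totals ran from 1387032 to 24917112 UMIs, and sums over members from 35091 to 383255. Members passed the filter and gate given in the report (113 ribosomal and 13 mitochondrial genes were counted). The members, lists and rules were chosen with earlier results of these data known. UMIs of members were summed per library and scaled to CPM, and libraries were compared as log2(CPM + 10) with exact Clopper-Pearson or Poisson intervals at the 95% level, which cover counting error only. The planned minimum of 20 members per library was lowered to 10 after the data were seen. Genes are named as examples of the fixed lists, among the 10 highest or lowest ratios to each other gated set, among the 5 highest or lowest ratios of a comparison, among the 10 widest gaps by IL-33, or as given markers; any other was chosen after its values were seen. In data simulated for orthogonal against UT ACT at day 5 with counting error only, 100% of 4-fold higher and 98.5% of 4-fold lower genes were called, and 4.47% of unchanged genes, over 1689 genes. The simulation held no variation between cells, so these rates do not carry over to the data, where single cells held most UMIs of some genes. Alternatives were another cell filter, stricter gates, TMM factors (edgeR 4.0.16), other UMI minimums and a smaller pseudocount. Motifs were searched in RefSeq promoters of GRCm38.p6. The work ran in R 4.3.3 and Python 3.11.15, with pandas 2.3.3, numpy 2.4.6, matplotlib 3.10.9 and scipy 1.17.1.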

Additional observations from a re-analysis of the deposited data

How the results depend on the processing

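With 3 to 26 members a library and 1 library per condition and day, counting error is the only error measured, and genes of few UMIs depend on single cells. Across all alternatives 37 counts and shares moved by more than the limit and 114 did not; among values of named genes 25 moved, 6 reversed and 540 did neither. The cell filter of the study's second experiment left 42 members, 4.50% of MHC class II-high cells in UT ACT at day 5 and 6.31% at day 26 of orthogonal ACT. The 4 comparisons are given next in the order orthogonal against UT ACT at day 5, orthogonal against PD1d/IL-2v ACT at day 12, orthogonal day 12 against day 5, and day 26 against day 12. With at least 50 UMIs per gene, 68 genes were higher and 87 lower, 39 and 84, 19 and 45, and 113 and 69. With at least 1 UMI they were 1288 and 1380, 1828 and 1702, 1939 and 1158, and 1469 and 1075, since more or fewer genes were tested. TMM factors left 121 higher in the second comparison. The next alternatives were chosen after seeing the data. Without members of 10 or more Lyz2 UMIs, 119 genes were lower in the first, and Klf2 reversed to -1.40 in the second. With each gene's highest cell in each library left out, 124 were higher in the first, 85 in the second, 65 higher and 90 lower in the third, and 111 lower in the last, and log2 ratios reversed for Ccl17 and Klf2 in the second (-2.43 and -1.01), Ear2 in the third (-0.54), and Ccl17 and Plet1 in the last (2.63 and 0.11). Genes above and below in the IL-33 libraries numbered 1029 and 675 with 3 libraries against 2. They were 2438 and 1571 with at least 2 UMIs of Cd209a, which left 1 library against 2, and 704 and 481 with that gate and at least 5 members (4 against 2), 448 and 307 at a mean of at least 50 CPM, 1604 and 1294 without the day 26 and non-treated libraries, 321 and 251 without Lyz2-high members in libraries of at least 5 members (4 against 3, so both choices changed), and 191 and 109 in all 8 libraries; the stricter lymphocyte gate gave 1015 below. Raising Cd209a to 2 UMIs left 8 and 9 members in orthogonal ACT at days 5 and 12, and the stricter lymphocyte gate 9 at day 5, so those comparisons were not given at 10 members. No paired analysis was possible because each group is 1 library.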
